A study of Mus musculus and Homo sapiens with 40 samples.

Results

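The chromatin marks H3K4me1 and H3K27ac were compared with each other in untreated p30-expressing cells, to ask where they lay together and where each lay alone. The comparison used 5 of the 40 samples of the series, 2 of H3K4me1 and 3 of H3K27ac, as 2 lists of ChIP-seq peaks, each called by the authors on the pooled samples of its mark. Peaks of both lists on chromosomes 1 to 19 and X were merged wherever they shared at least 1 bp, and each merged region was put in 1 of 3 classes, both marks, H3K4me1 only or H3K27ac only, by the lists its peaks came from. The 307218 peaks gave 214363 regions.

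All samples used were HPC-7 cells, a mouse hematopoietic progenitor line, transduced with a retrovirus that expresses the p30 isoform of CEBPA fused to ERT2, a fragment of the estrogen receptor that keeps a protein out of the nucleus until 4-hydroxytamoxifen is added. The labels give the untreated samples no treatment, whereas the methods of the study describe 4-hydroxytamoxifen for cells with such fusions, so the untreated state refers to LPS. Further lists were set beside the 2 marks. For p30 CEBPA binding, an antibody against CEBPA and one against the estrogen receptor part (anti-ER) gave 1 library each. The title of the anti-ER sample says untreated, whereas that of the anti-CEBPA sample names no treatment state. H3K27ac after 100 ng/mL LPS for 2 h came from 3 samples. For comparison, both marks were taken from untreated HPC-7 cells with the p42 isoform fused to ERT2. Cell line and isoform cannot be told apart here, because each isoform stands for 1 transduced line. No list has a replicate of its own, so no difference has a replicate check and no test was possible, and the depth behind each list is unknown from the files. The ranges in brackets are 95% Wilson intervals and cover counting error over regions or genes only.

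H3K4me1, a single methyl group on lysine 4 of histone H3, is found at enhancers whether or not they are active, and around rather than on the start sites of active genes. H3K27ac, an acetyl group on lysine 27 of the same histone, marks active enhancers and active promoters, so that distal regions with both marks are commonly read as active enhancers and those with H3K4me1 alone as primed ones. CEBPA is a transcription factor of myeloid differentiation, and p30 is its shorter isoform, which keeps the DNA-binding domain and lacks the first part of the activation domain. Chromatin was digested with micrococcal nuclease for H3K4me1 and sonicated, with sodium butyrate in the buffers, for H3K27ac, so the mark and the way its chromatin was prepared cannot be told apart. A shared region means that both marks were called there, not that they lay on the same nucleosome or in the same cell.

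The cell type label was checked by H3K27ac at gene start sites. All 6 progenitor markers, *Kit*, *Cd34*, *Tal1*, *Gata2*, *Ptprc* and *Spi1*, had an H3K27ac peak at the start of their canonical transcript. Canonical starts were adopted after *Gata2* had shown neither mark at the 5′ end of its gene record, so its place among the 6 rests on that choice. None of 12 genes of other tissues, among them *Alb*, *Myod1* and *Neurod1*, had a peak of either mark at its start. Of 10 lymphoid genes, 1 carried H3K27ac (*Gata3*) and 7 had neither mark, and of 8 erythroid genes 6 had neither mark.

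The sequences below are shown for the number of CG dinucleotides in a few of the best-ranked regions. They are on the plus strand of GRCm39, and capitals mark the dinucleotide CG. Each run covers 200 bases, around the anti-CEBPA summit for the distal regions (summit more than 1000 bp from every annotated transcript start, with summits of both p30 antibodies) and around the H3K27ac summit for the promoters. These 8, and 1 more shown with the *Igh* locus, were picked from the 12 best-ranked regions after these were seen.
Both marks, region near Ccr1, chr9:123731806-123732005: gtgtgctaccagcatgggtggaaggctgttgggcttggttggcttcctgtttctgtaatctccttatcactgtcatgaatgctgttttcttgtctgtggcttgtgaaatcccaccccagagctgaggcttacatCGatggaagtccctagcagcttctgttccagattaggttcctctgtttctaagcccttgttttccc
Both marks, region near Hdac4, chr1:91989551-91989750: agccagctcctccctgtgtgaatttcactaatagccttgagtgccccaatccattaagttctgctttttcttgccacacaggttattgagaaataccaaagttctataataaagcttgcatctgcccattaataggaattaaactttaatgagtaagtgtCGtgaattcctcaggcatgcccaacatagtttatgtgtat
H3K4me1 only, region in the Igh locus, chr12:115112672-115112871: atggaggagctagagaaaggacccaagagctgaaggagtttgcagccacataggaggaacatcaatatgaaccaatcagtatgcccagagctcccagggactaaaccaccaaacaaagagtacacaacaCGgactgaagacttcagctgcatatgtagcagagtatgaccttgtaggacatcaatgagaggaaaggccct
H3K4me1 only, region near Ifi203, chr1:173772904-173773103: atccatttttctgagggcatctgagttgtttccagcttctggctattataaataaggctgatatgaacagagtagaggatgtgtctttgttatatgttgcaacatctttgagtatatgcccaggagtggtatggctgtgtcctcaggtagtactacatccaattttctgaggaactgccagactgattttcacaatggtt
H3K27ac only, distal region near Haao, chr17:84169285-84169484: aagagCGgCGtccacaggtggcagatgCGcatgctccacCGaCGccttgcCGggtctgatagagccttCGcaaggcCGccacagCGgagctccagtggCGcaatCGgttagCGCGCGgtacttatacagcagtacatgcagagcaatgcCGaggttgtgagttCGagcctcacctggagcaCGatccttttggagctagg
H3K27ac only, distal region near Trappc9, chr15:72939566-72939765: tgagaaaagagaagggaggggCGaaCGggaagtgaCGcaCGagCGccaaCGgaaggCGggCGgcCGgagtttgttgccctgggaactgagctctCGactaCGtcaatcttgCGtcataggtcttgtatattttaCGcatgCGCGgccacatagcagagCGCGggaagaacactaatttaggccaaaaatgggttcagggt
H3K27ac only, promoter of Maip1, chr1:57445688-57445887: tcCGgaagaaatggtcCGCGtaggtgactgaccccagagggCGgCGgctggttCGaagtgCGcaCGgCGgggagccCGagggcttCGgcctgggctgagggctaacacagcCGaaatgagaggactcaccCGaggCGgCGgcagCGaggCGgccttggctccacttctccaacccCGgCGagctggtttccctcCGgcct
H3K27ac only, promoter of Tardbp, chr4:148710962-148711161: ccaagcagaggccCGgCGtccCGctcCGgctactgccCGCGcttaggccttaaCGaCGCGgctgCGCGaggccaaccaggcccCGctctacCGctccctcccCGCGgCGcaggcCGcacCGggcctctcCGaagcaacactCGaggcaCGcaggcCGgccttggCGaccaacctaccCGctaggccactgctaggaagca

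The 2 regions with both marks and the 2 with H3K4me1 only held at most 1 CG in these 200 bases. The distal H3K27ac-only regions held 17 each, and the H3K27ac-only promoters of *Maip1* and *Tardbp* held 20 and 24. The best-ranked regions not printed held 1 CG (both marks), 10 (the distal H3K27ac-only region near *Sfi1*) and 24 (an H3K27ac-only promoter). The region near *Ccr1* spanned 6932 bp of intergenic sequence at chr9:123727492-123734423, 37776 bp from the start of this chemokine receptor gene. It ranked 2 among the H3K4me1 peaks, with a fold enrichment at the summit of 7.69 as the authors' peak caller gave it, and 14 among the H3K27ac peaks, with a fold of 38.9. The region near *Hdac4*, a histone deacetylase gene, lay 118840 bp from its start in an intron and ranked 15 among the H3K4me1 peaks, at a fold of 12.5. The H3K4me1-only region near *Ifi203*, a gene of the interferon-inducible p200 family, was intergenic, 3177 bp from the gene's start, and had an H3K4me1 fold of 6.09 and an anti-CEBPA fold of 18.4. It had no H3K27ac peak before or after LPS. The distal H3K27ac-only regions near *Haao* and *Trappc9* were intergenic in the annotation, with H3K27ac folds of 65.1 and 36.1 and CpG observed over expected ratios of 0.678 and 0.513 over the whole region, and the best-ranked distal one, near *Sfi1*, had a fold of 77.8 and a ratio of 0.436. Over all distal regions the median ratio in the 500 bp around the summit differed little, at 0.174 with both marks, 0.166 with H3K4me1 only and 0.189 with H3K27ac only, so the contrast between the distal sequences printed was not that of all distal regions. The promoters of *Maip1*, whose product acts in the mitochondrial matrix, and *Tardbp*, which encodes the RNA-binding protein TDP-43, had H3K27ac folds of 149 at both. The best-ranked H3K27ac-only promoter, near no protein-coding start (219291 bp from that of *Potefam3f*), had a fold of 57.6.

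Across the genome, each mark overlapped the other at about the same share of its peaks. The H3K4me1 list held 168028 peaks with a median width of 405 bp, and the H3K27ac list 139190 peaks with a median width of 441 bp. Of the H3K4me1 peaks, 80490 (47.9%; 47.7 to 48.1) overlapped an H3K27ac peak, and 68393 of the H3K27ac peaks (49.1%; 48.9 to 49.4) overlapped an H3K4me1 peak. In base pairs, 52.7 Mb lay under both marks, which was 46.9% of the H3K4me1 and 43.4% of the H3K27ac sequence. By region, 56028 (26.1%) had both marks, 87538 (40.8%) H3K4me1 only and the other 70797 H3K27ac only. When overlap was required to cover 50% of both peaks, the shares fell to 11.8% and 14.3%.

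Regions with both marks were the wide ones. Their median width was 1274 bp (quartiles 699 and 2409), against 323 bp (232 and 492) for H3K4me1-only and 334 bp (229 and 553) for H3K27ac-only regions. The class with the fewest regions therefore covered the most sequence, 109 Mb, against 36.9 and 35.2 Mb. Of the 3840 regions of at least 5 kb, 3806 had both marks, 34 had H3K27ac only and 0 had H3K4me1 only. A wider peak and a merged chain of peaks have more room to meet a peak of the other list, and this cannot be told apart from the class itself. In 36476 regions with both marks (65.1%) a single peak of each mark met. Of these, the H3K4me1 peak lay inside the H3K27ac peak in 24.1%, the H3K27ac peak inside the H3K4me1 peak in 23.2%, and the peaks were staggered in 52.7%, with summits a median of 215 bp apart. Within the regions with both marks, 48.3% of the sequence lay under both peaks, 30.8% under H3K27ac alone and 20.9% under H3K4me1 alone.

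Strong peaks met the other mark far more often than weak ones. In the top decile of the H3K4me1 list, ranked by q-value, 84.9% of peaks overlapped H3K27ac, and this fell decile by decile to 27.8% in the last. The H3K27ac list ran from 80.4% in its second decile to 28.3% in its last, but its top decile, at 76.8%, was lower than the second. That decile was also the one with most promoters: 51.1% of its summits lay in a promoter (1000 bp upstream to 100 bp downstream of a transcript start), against 18.7% in the second and 8.98% to 11.8% in the other 8. Among the top-decile H3K27ac peaks, 68.2% of the 7114 with a promoter summit overlapped H3K4me1, against 85.7% of the 6805 elsewhere. The promoter share of H3K4me1 peaks, by contrast, stayed between 10.0% and 11.6% in all 10 deciles. Strong peaks were also the wide ones. From the top decile to the last, the median width fell from 1510 to 264 bp for H3K4me1 and from 2499 to 240 bp for H3K27ac. The part of width in the overlap was not tested.

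**Figure D1:**
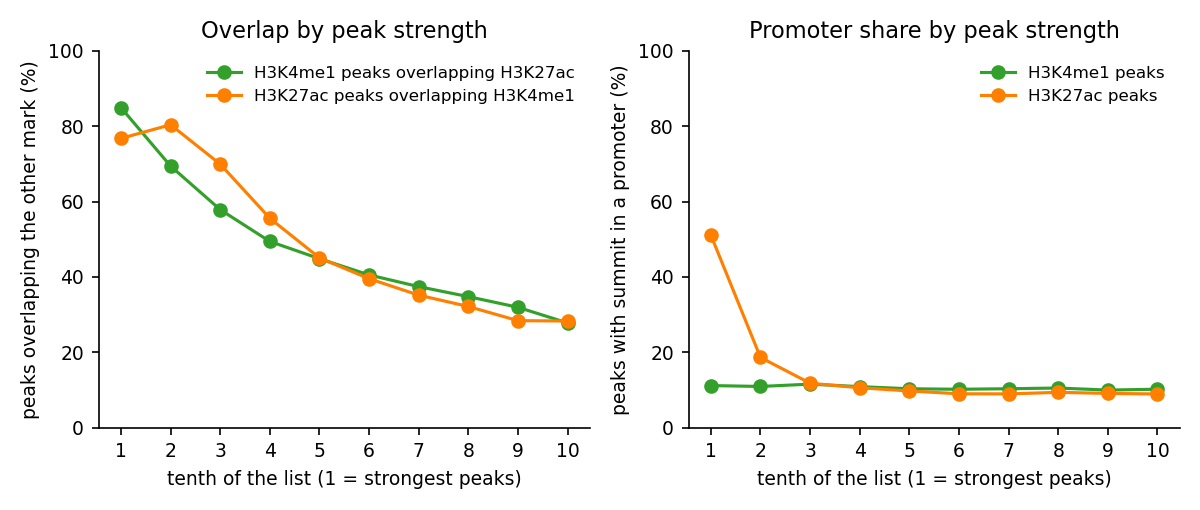
Peaks of each list in 10 equal groups by strength (x axis, 1 = strongest), with the share that overlapped the other mark (left, %) and the share with the summit in a promoter (right, %). Overlap fell from 84.9% to 27.8% for H3K4me1 and from 80.4% in the second group to 28.3% for H3K27ac, and the promoter share was high only in the top H3K27ac groups (51.1% and 18.7%). Median peak width fell along the same groups, from 1510 to 264 bp for H3K4me1 and from 2499 to 240 bp for H3K27ac.

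The classes differed in where they lay. Introns held the largest share of each class, 62.9% of regions with both marks, 61.5% with H3K4me1 only and 60.2% with H3K27ac only, against 47.4% of the genome. Intergenic sequence, 41.9% of the genome, held 23.8% (23.5 to 24.1) of H3K4me1-only regions, 12.5% (12.2 to 12.7) of regions with both marks and 6.48% (6.30 to 6.66) of H3K27ac-only regions. Exons held 18.9% of H3K27ac-only regions, against 10.0% with both marks, 7.04% with H3K4me1 only and 5.54% of the genome. Promoters held 14.6% and 14.4% of regions with both marks and with H3K27ac only, but 7.67% of H3K4me1-only regions, beside 5.16% of the genome. The median distance from a region to the nearest start of a protein-coding gene was 25989 bp for H3K4me1 only, 19585.5 bp for both marks and 18903 bp for H3K27ac only. To the starts of all transcripts it was 5343.5, 4161 and 3855 bp, and with peaks within 1000 bp merged, regions with both marks lay nearest, at 20279.5 bp against 21640.5 bp for H3K27ac only. Within 1 kb of such a start lay 7.61% of regions with both marks and 6.90% with H3K27ac only, against 1.55% with H3K4me1 only. Farther than 100 kb lay 16.8% of H3K4me1-only regions, 11.4% with both marks and 7.89% with H3K27ac only.

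**Figure D2:**
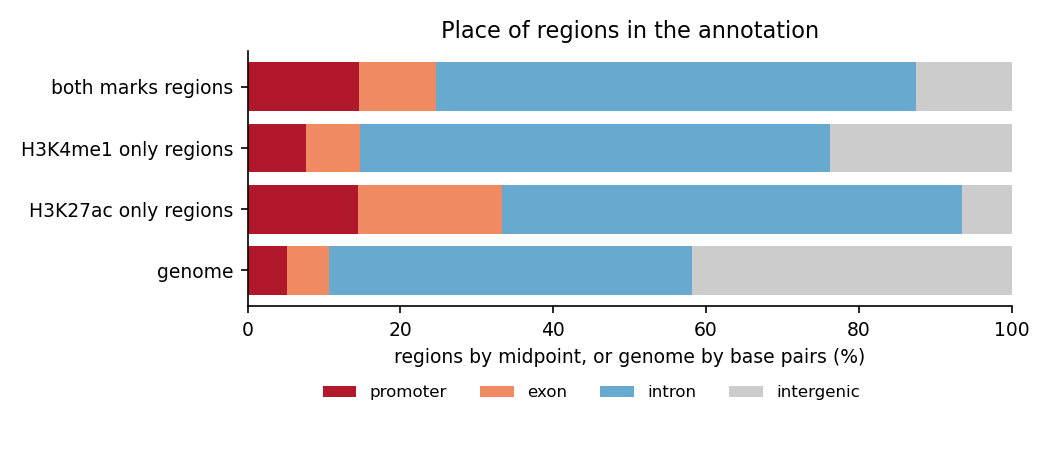
Share of each class by the place of the region's midpoint, and of the base pairs of chromosomes 1 to 19 and X (bottom bar), in promoters, exons, introns and intergenic sequence (x axis, %). The intergenic share was 23.8% for H3K4me1 only, 12.5% for both marks and 6.48% for H3K27ac only, against 41.9% of the genome, and the exon share was highest for H3K27ac only, at 18.9%.

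H3K27ac without H3K4me1 away from start sites lay mostly within the bodies of genes with an acetylated start. Of the 54875 distal H3K27ac-only regions, 48141 (87.7%) were inside a protein-coding gene, and of those, 45024 (93.5%; 93.3 to 93.7) lay in a gene whose own start carried H3K27ac. Genes with H3K27ac at the start made up 42.8% of all protein-coding gene sequence. Of the distal regions with both marks 73.8% lay inside a protein-coding gene, and 88.0% of those in a gene with an acetylated start, while the distal H3K4me1-only regions had the lowest values, 55.7% and 75.7%. The H3K27ac-only class as a whole, distal or not, had a median rank 63.4% of the way down the H3K27ac list, against 28.7% for the best H3K27ac peak of a region with both marks. H3K4me1-only regions stood at 61.2% of their list, and the best H3K4me1 peaks of regions with both marks at 30.6%.

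At the start sites of protein-coding genes the marks took opposite positions. Over 21584 starts of canonical transcripts, the share under an H3K27ac peak rose from 9.89% at 5 kb upstream to 39.7% at 300 bp upstream, was 38.3% at the start itself and reached 47.0% at 200 bp downstream. H3K4me1 had its lowest share, 3.13%, at the start itself, between shoulders of 12.1% at 1200 bp upstream and 17.1% at 1600 bp downstream. By the peaks from 1000 bp upstream to 100 bp downstream, 3925 starts (18.2%) had both marks, 645 (2.99%) H3K4me1 only, 6613 (30.6%) H3K27ac only and 10401 (48.2%) neither. CpG-rich starts (GC content of at least 50% and a CpG ratio of at least 0.6 over 500 bp) were 81.9% of the starts with H3K27ac only and 66.1% of those with both marks, but 22.3% with H3K4me1 only and 23.1% with neither.

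**Figure D3:**
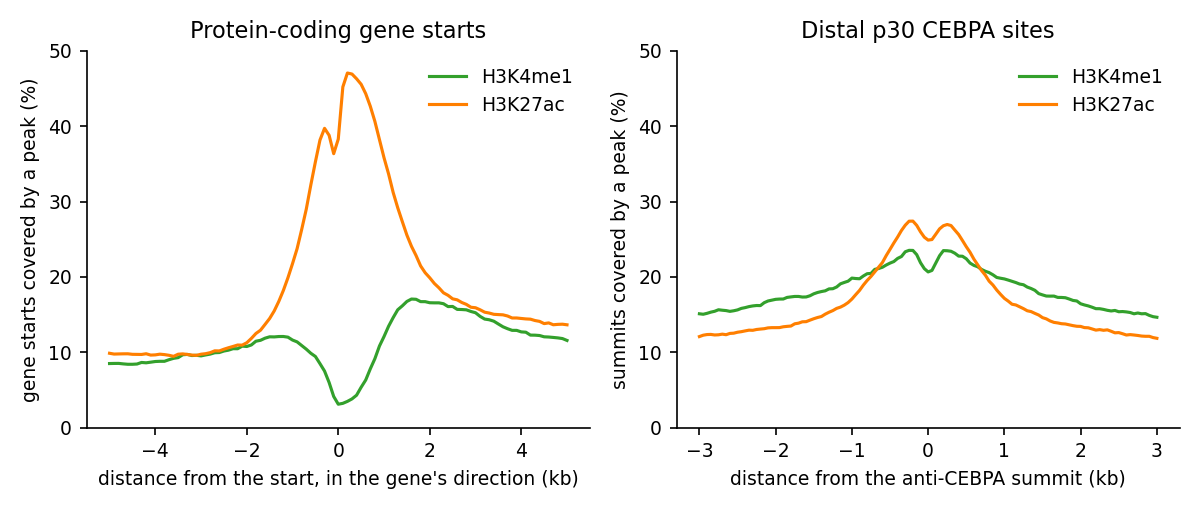
Share of protein-coding gene starts (left, n = 21584) and of distal anti-CEBPA summits inside an anti-ER peak (right, n = 16486) covered by a peak of each mark (y axes, %), by distance in kb. At starts H3K27ac reached 47.0% at 200 bp downstream where H3K4me1 was near its minimum of 3.13%, whereas at the p30 CEBPA summits both marks were highest close to the summit, with a shallow dip on it (24.9% for H3K27ac and 20.7% for H3K4me1).

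The 129 genes of 12 lists, chosen with earlier results of these data known, showed which kinds of gene carried which marks, read against 18.2%, 2.99% and 30.6% of all starts with both marks, H3K4me1 only and H3K27ac only. Folds are those of the strongest peak at the start and are comparable within a mark, not between marks. Transcription factors of progenitors nearly always had H3K27ac and often H3K4me1: of 10, 6 had both marks and 4 H3K27ac only. *Runx1* and *Gata2*, both needed for blood stem cells, had both marks, with H3K27ac folds of 34.0 and 18.1 and H3K4me1 folds of 3.98 and 3.42, and *Tal1*, another regulator of early blood cells, had H3K27ac only, at 31.1. Of 10 myeloid transcription factors 5 had both marks, 3 H3K27ac only and 2 neither. *Spi1*, which encodes PU.1, had both at folds of 71.0 for H3K27ac and 6.03 for H3K4me1, as did *Cebpb* at 23.5 and 2.56, whereas the endogenous *Cebpa* had H3K27ac only, at 36.6. *Irf8* and *Klf4*, factors of monocytes and dendritic cells, had neither mark. *Irf8* nevertheless was the nearest gene of 42 H3K4me1-only regions and 16 with both marks.

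Receptors and granule genes were divided among the states. Of 10 haematopoietic receptors 6 had both marks, among them *Kit*, the stem cell factor receptor, the granulocyte receptor gene *Csf3r* and the macrophage receptor gene *Csf1r*, with H3K27ac folds of 30.6, 29.0 and 33.6. *Flt3*, a receptor of early progenitors, had H3K4me1 only, at a fold of 4.21, *Il3ra* and *Epor* had H3K27ac only, and *Csf2ra* had neither. Of 13 neutrophil genes 6 had both marks, and *Mpo* and *Elane* had the 2 highest H3K4me1 folds of the 129 genes, 8.12 and 7.24, beside H3K27ac folds of 26.4 and 34.7. The H3K27ac peak at *Elane* also covered the start of its neighbour *Prtn3*. *Ltf* and *Mmp9* also had both marks, at H3K27ac folds of 6.35 and 2.76. *Ngp* and *Lcn2* had H3K4me1 only, and the starts of *S100a8*, *S100a9*, *Ctsg*, *Camp* and *Mmp8* had neither.

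Of 15 inflammatory cytokine and chemokine starts 4 had H3K4me1 only, where 2.99% of all starts were in that state, and by the 5′ end of the gene record 3 had. The 4 were *Il1b*, *Il1a*, *Il10* and *Ccl5*, with H3K4me1 folds of 2.72, 2.87, 5.38 and 5.28. *Tnf*, *Il6*, *Cxcl2*, *Ccl3*, *Ccl4* and *Ptgs2* had both marks, with an H3K27ac fold of 55.8 at *Tnf* against 6.30 at *Il6*. *Cxcl10*, *Il12b*, *Cxcl1*, *Ccl2* and *Nos2* had neither mark at the start, and of the 15 genes 0 had H3K27ac only. The receptor and signalling genes upstream of these cytokines looked different: of 15 genes of the LPS receptor and NF-kB pathway 8 had both marks, 6 H3K27ac only and 0 H3K4me1 only. *Tlr4*, the LPS receptor, had H3K27ac only at a fold of 19.4, and *Nfkb1* and its inhibitor gene *Nfkbia* had both, at H3K27ac folds of 47.6 and 26.4. *Traf6*, an adaptor of the pathway, was the 1 gene with neither mark. In the AP-1 family *Fos* had both marks (H3K27ac fold 65.6, H3K4me1 fold 4.98), *Jun* H3K27ac only (24.7), *Atf3* and *Batf3* H3K4me1 only (2.91 and 4.48) and *Fosl1* neither. *Fosb* and *Batf* joined *Jun*, and *Fosl2*, *Junb* and *Jund* joined *Fos*.

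Of 10 housekeeping genes 8 had H3K27ac only, with a fold of 54.6 at the ribosomal gene *Rplp0*. *Gapdh* and *Actb* had both marks, at H3K27ac folds of 47.0 and 91.9. Among 6 genes linked to p30 or leukemia, *Msi2* and *Sox4* had both marks, *Trib1* had H3K27ac only, and *Nt5e*, *Hoxa9* and *Trib2* had neither. Lymphoid starts had neither mark in 7 of 10 genes, including *Cd3e* and *Pax5*, and H3K4me1 only at *Rag1* (3.35). Erythroid starts had neither in 6 of 8, including *Gata1*, *Klf1* and *Hbb-bs*. When the window ran to 1000 bp downstream, 5530 of all starts had both marks instead of 3925, and 8 of the 129 genes changed state: *Tal1*, *Myc*, *Polr2a* and *Irf8* gained H3K4me1, *Csf2ra*, *Traf6* and *Atf3* gained H3K27ac, and *Klf1* gained both. From the 5′ end of the gene record in place of the canonical start, *Gata2*, *Erg*, *Mmp9* and *Atf3* were among the genes that changed, to neither mark, and *Lcn2* and *Ccl5* changed to both.

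**Figure D4:**
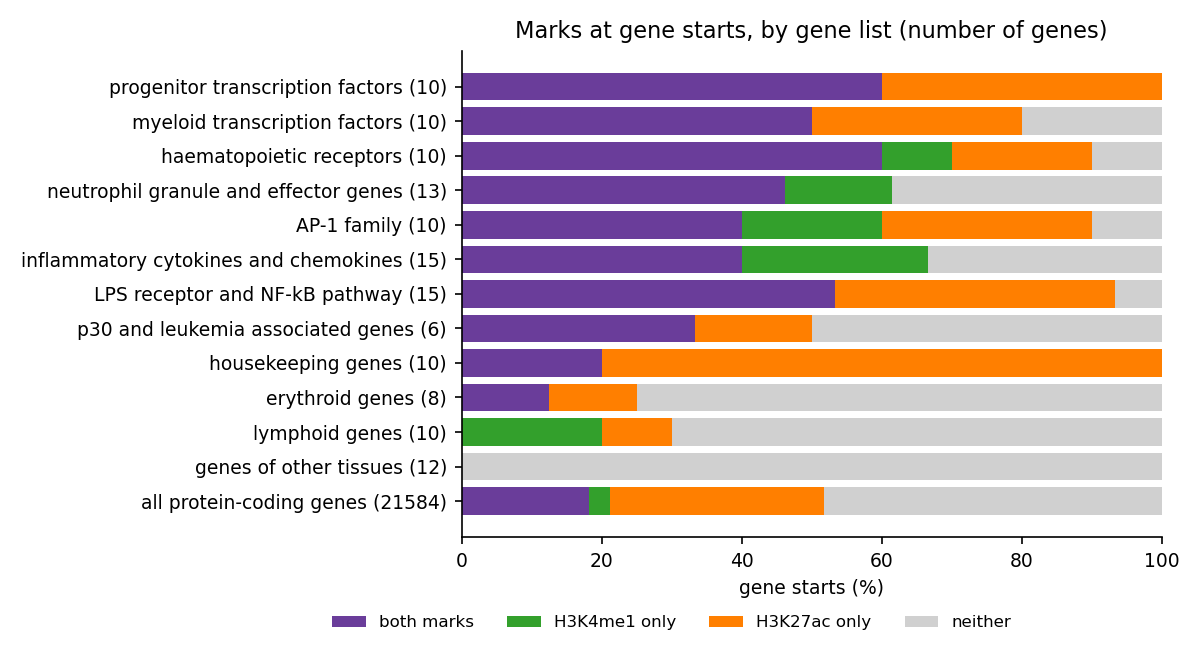
Share of gene starts (x axis, %) with both marks, H3K4me1 only, H3K27ac only or neither, for each of the 12 lists and all 21584 protein-coding genes, with the number of genes in brackets. Housekeeping genes had H3K27ac only at 8 of 10 starts, cytokines and chemokines H3K4me1 only at 4 of 15, and genes of other tissues neither mark at all 12.

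Counted by nearest protein-coding gene, the 87538 H3K4me1-only regions were spread over 10670 genes. The 5 genes nearest to most of these regions were *Zfp386* with 368, *Tox*, a factor of lymphocyte development, with 223, *Jarid2*, a Polycomb cofactor, with 187, *Cited2* with 186 and *Ptprc*, the leukocyte antigen CD45, with 164. Such counts were not scaled by the length of sequence nearest to each gene. At *Tox* the start itself carried neither mark, and its regions spread over 823 kb. Regions with both marks were most numerous near *Zfp386* (120), *Runx1* (82), *Slco3a1* (82), *Foxp1* (71) and *Med13l* (68), and H3K27ac-only regions near *Svil* (80), *Tbc1d22a* (72), *Elmo1* (71), *Ccdc6* (70) and *Foxn3* (69). Of the H3K27ac-only regions near these last 5 genes, 57 to 66 per gene lay in introns. All 5 starts carried H3K27ac, as did 48.8% of all protein-coding gene starts.

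The regions assigned to *Zfp386* lay largely in the neighbouring *Igh* locus, which holds the gene segments of the antibody heavy chain and no gene counted as protein-coding. This locus, chr12:113218450-115973713, held 504 H3K4me1-only regions in 2.76 Mb, or 183 per Mb, against 33.3 per Mb over chromosomes 1 to 19 and X. Of the 504, 499 lay among its 183 V segments, which span chr12:113536547-115973713 and so take up most of the locus. It also held 139 regions with both marks and 10 with H3K27ac only, 50.4 and 3.63 per Mb, against 21.3 and 26.9 over the genome. The T cell receptor loci *Trb* and *Trg* had 136 and 97.3 H3K4me1-only regions per Mb, and *Tra* 26.2. The light chain loci did not: *Igk* had 2.21 per Mb and *Igl* 0 regions of any class in 0.199 Mb. These loci were singled out after the counts for *Zfp386* had been seen. Of the 134650 H3K4me1 peaks of the p42 list, 421 lay in the *Igh* locus, and of the 168028 of the p30 list 660. One more H3K4me1-only region of this locus, chosen by its rank among those with summits of both antibodies, at chr12:115617665-115619183, is shown for its 2 copies of the CEBP consensus TTNNGCAA (either strand, in capitals) within 200 bases around the anti-CEBPA summit.
H3K4me1 only, another region in the Igh locus, chr12:115617831-115618030: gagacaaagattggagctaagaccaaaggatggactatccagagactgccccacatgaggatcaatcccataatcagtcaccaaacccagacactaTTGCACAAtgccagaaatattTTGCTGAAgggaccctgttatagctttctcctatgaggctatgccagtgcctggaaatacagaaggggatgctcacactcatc

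Its H3K4me1 fold was 6.64, its anti-CEBPA fold 11.1 and its anti-ER fold 10.5, and it had no H3K27ac peak before or after LPS. None of the other 8 distal regions selected in the same way held the consensus within 100 bases of the summit.

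On chromosome X all classes were sparse, and H3K4me1-only regions more so than H3K27ac-only regions. It held 454 H3K4me1-only regions (2.68 per Mb, against 35.4 on autosomes), 1126 H3K27ac-only regions (6.64 against 28.3) and 327 with both marks (1.93 against 22.6). By peaks, the X held 880 of H3K4me1 and 1469 of H3K27ac in p30-expressing cells, and 621 and 1534 in p42-expressing cells.

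Regions with both marks held a p30 CEBPA site more often than regions with a single mark. Of all regions, 3.69% held an anti-CEBPA summit and 6.29% an anti-ER summit. With both marks it was 6097 regions (10.9%; 10.6 to 11.1), against 855 (0.977%; 0.914 to 1.04) with H3K4me1 only and 956 (1.35%; 1.27 to 1.44) with H3K27ac only. Anti-ER gave the same order, with 18.8%, 1.56% and 2.20%. Part of the gap followed region width. Per Mb of region there were 61.8 anti-CEBPA summits with both marks, 23.3 with H3K4me1 only and 27.7 with H3K27ac only, and among regions of 300 to 1000 bp the shares were 2.69%, 1.16% and 1.14%. Regions without either mark had 9.49 summits per Mb. Among distal regions alone the H3K27ac-only share, 0.891%, was no longer above the H3K4me1-only share, 0.980%.

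Most p30 CEBPA summits lay outside both mark lists. Of 31823 anti-CEBPA summits, 6745 (21.2%) lay in regions with both marks, 859 (2.70%) in H3K4me1-only regions, 974 (3.06%) in H3K27ac-only regions and 23245 (73.0%) in none, although the regions covered 6.89% of the genome. With anti-ER 53.5% of 33952 summits lay outside. The antibodies met less often there, since 53.5% of the outside anti-CEBPA summits lay in an anti-ER peak, against 90.9% of those with both marks, 80.2% with H3K4me1 only and 85.1% with H3K27ac only. The CEBP consensus was present within 100 bp of the anti-CEBPA summit at 45.8% of summits with both marks, 47.6% with H3K4me1 only, 50.8% with H3K27ac only and 55.4% outside, beside 9.31% of 200 bp windows on a regular grid over the genome. The consensus GAGGAAGT of PU.1, a partner factor in myeloid cells, was most frequent at summits with both marks and least frequent outside, at 7.01%, 2.79%, 4.62% and 1.73%, beside 1.22% of the genome windows. Around 16486 distal anti-CEBPA summits that lay in an anti-ER peak, H3K27ac cover rose from 12.1% at 3 kb upstream to 27.4% at 200 bp, and H3K4me1 cover from 15.1% to 23.5%.

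At gene starts, p30 CEBPA was more frequent in both states with H3K27ac than in those without. An anti-CEBPA summit lay at 10.7% (9.75 to 11.7) of starts with both marks, 8.27% (7.63 to 8.96) with H3K27ac only, 3.10% (2.02 to 4.74) with H3K4me1 only and 1.57% (1.35 to 1.82) with neither.

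After LPS, H3K27ac was called at most regions that had carried it together with H3K4me1, and at a minority of those that had carried H3K4me1 only. The classes were set by H3K27ac before LPS, so the lower share with H3K4me1 only was largely fixed by their definition. Of all regions, 48.4% had an H3K27ac peak after LPS. The share was 89.3% (89.0 to 89.5) with both marks, 58.6% (58.3 to 59.0) with H3K27ac only and 13.9% (13.6 to 14.1) with H3K4me1 only. Without LPS, 10.1% of the H3K4me1-only regions had an H3K27ac peak in p42-expressing cells. Regions with an anti-CEBPA summit had higher shares in each class: 98.1% against 88.2% with both marks, 90.7% against 58.2% with H3K27ac only, and 24.0% (205 of 855) against 13.8% with H3K4me1 only. The strength of the untreated peak moved with this. In the top-ranked 29180 H3K4me1-only regions the shares were 29.4% with a summit and 18.7% without, and in the lowest 29180 they were 16.6% and 10.1%. For H3K27ac only they were 97.7% and 86.5% in the top-ranked 23599 regions, 73.8% and 53.1% in the middle ones and 36.8% and 35.9% in the lowest 23599. For both marks they were 100% and 99.9% in the top-ranked 18676 regions, 98.8% and 96.6% in the middle ones and 79.4% and 70.9% in the lowest 18676. Wide regions also have more room to hold a summit and to meet a peak called after LPS. The parts of strength and width in the difference were not tested.

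**Figure D5:**
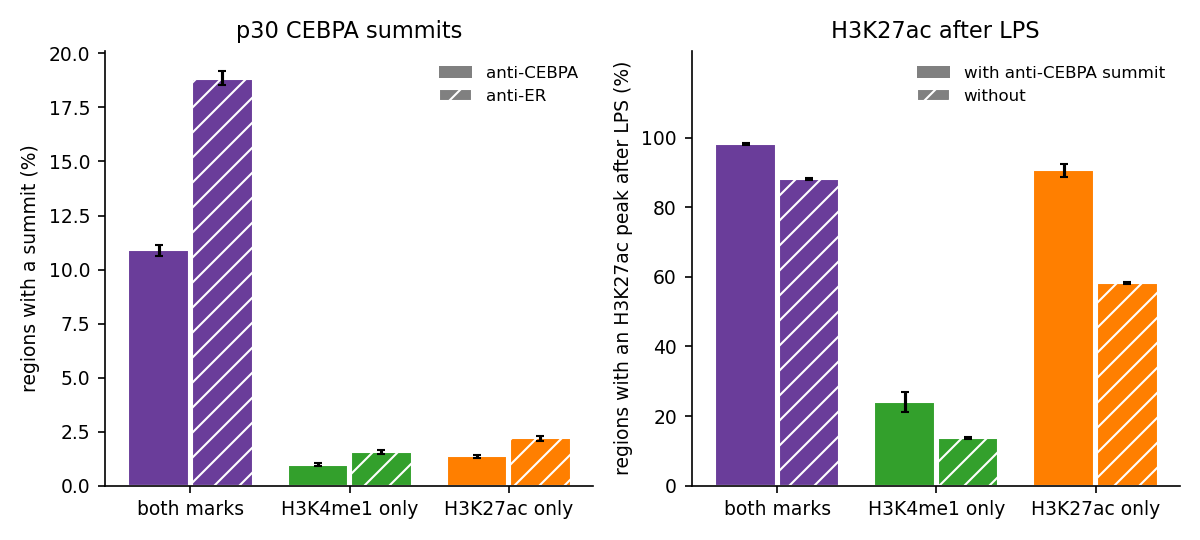
Share of regions of each class with a p30 CEBPA summit by either antibody (left, %) and with an H3K27ac peak after LPS, split by the presence of an anti-CEBPA summit (right, %), with 95% Wilson intervals that cover counting error only. Summits were found in 10.9% of regions with both marks against 0.977% and 1.35% of the others, and H3K27ac after LPS in 24.0% of H3K4me1-only regions with a summit against 13.8% without.

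At gene starts, 144 of the 645 with H3K4me1 only (22.3%) had an H3K27ac peak after LPS, against 274 of 10401 (2.63%) with neither mark. The window for these states ended 100 bp downstream. Before LPS, an H3K27ac peak already covered 6.20% of the H3K4me1-only starts at 200 bp downstream and 11.5% at 500 bp. The part of such nearby peaks in the 22.3% was not tested. Of the 11 listed genes with H3K4me1 only, 4 had an H3K27ac peak after LPS: *Ccl5* at a fold of 5.67, *Lcn2* at 4.13, *Il1b* at 2.48 and *Il10* at 1.95. *Il1a*, *Flt3*, *Ngp*, *Atf3*, *Batf3* and *Rag1* were among those that had none. Of the 43 listed genes with neither mark, 4 had one, *Klf1* at 30.0, *Csf2ra* at 15.2, *Nos2* at 4.25 and *Camp* at 3.66. *Klf1* and *Csf2ra* already had an untreated H3K27ac peak when the window ran to 1000 bp downstream. At starts that already had both marks, the fold went from 6.30 to 15.3 at *Il6*, from 3.81 to 9.45 at *Cxcl2* and from 47.6 to 85.8 at *Nfkb1*, and from 65.6 to 64.0 at *Fos* and from 55.8 to 50.5 at *Tnf*. The fold was also higher after LPS at each of the 10 housekeeping starts. It went from 36.5 to 58.7 at *Eef2*, from 47.0 to 60.2 at *Gapdh* and from 46.2 to 47.7 at *Polr2a*. A higher fold after LPS was thus not particular to cytokine and NF-kB genes. The lists before and after LPS were called separately, so these folds are set side by side without a test.

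In p42-expressing cells, regions with both marks were marked most often. Of regions with both marks in p30-expressing cells, 77.4% had H3K4me1 and 81.5% H3K27ac in the p42 line, and 8.30% had neither. Of H3K4me1-only regions, 38.2% had H3K4me1, 10.1% H3K27ac and 58.8% neither, and of H3K27ac-only regions 58.5% had H3K27ac, 10.2% H3K4me1 and 39.4% neither. The classes built from the p42 lists alone were 48967 regions with both marks (27.1% of 180837), 60576 with H3K4me1 only (33.5%) and 71294 with H3K27ac only (39.4%). The share of H3K4me1-only regions was thus larger in the p30 line and that of H3K27ac-only regions smaller, but the p42 H3K4me1 list was also shorter, at 134650 peaks, and whether list length or the cells set the shares was not tested.

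In base composition, distal H3K4me1-only regions had the lowest GC content, a median of 43.6% in the 500 bp around the summit, against 46.2% with both marks, 47.8% with H3K27ac only and 41.6% in windows on a genome grid of 10 kb. In these 500 bp windows PU.1 was the motif that most set regions with both marks apart: GAGGAAGT occurred in 7.31% of the distal ones, 3.96% with H3K4me1 only, 4.72% with H3K27ac only and 2.99% of genome windows. Among windows with a GC content of 40 to 50% the values were 7.39%, 4.29%, 4.88% and 3.30%. In 200 bp windows the gap was smaller, at 2.09% with both marks and 1.63% in either class of a single mark, beside 1.22% of genome windows. At matched GC content the 200 bp values were 1.90% with both marks, 1.70% with H3K4me1 only and 1.69% with H3K27ac only. Their intervals overlapped, so PU.1 did not set the classes apart there. The E-box CAGCTG was most frequent with H3K27ac only, at 29.3% against 24.5% with both marks and 19.4% with H3K4me1 only, beside 16.8% of the genome, and at matched GC content the values were 25.7%, 22.7%, 20.4% and 19.8%. The motif of GATA factors, searched as AGATAA, was most frequent in the class with the lowest GC content, at 28.5% with H3K4me1 only, 25.1% with both marks, 20.8% with H3K27ac only and 30.0% of genome windows, and at matched GC content at 27.1%, 26.3%, 23.8% and 25.7%. The CEBP consensus was no more frequent than in the genome in any class, in 8159 of 42884 windows with both marks, 14612 of 76853 with H3K4me1 only and 16.8% with H3K27ac only, against 21.9%. AP-1 (TGANTCA) was at 15.9%, 14.4% and 14.4% against 14.5%, and its reversed control ACTNAGT at 13.7%, 13.2% and 13.9% against 12.4%. RUNX (TGTGGTT) was at 14.2% with both marks, in 10007 of 76853 windows with H3K4me1 only and at 12.1% with H3K27ac only, against 11.3%, and at matched GC content at 14.9%, 13.5%, 13.3% and 11.4%. The rest, namely ETS (CCGGAAGT), NF-kB (GGANTTTCC), ISRE (GAAANNGAA), the GC box GGGCGG, the CTCF core and the reversed CEBP control AACGNNTT, were between 0.329% and 17.9% in the distal regions of the classes.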

How the data were processed

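Peak lists of ChIP-seq in HPC-7 cells were used. According to the labels and the methods of the study, the authors trimmed reads with Trim Galore 0.6.6, aligned them with Bowtie2 to mm39, excluded duplicates marked by Picard and called narrow peaks against input with MACS2, on pooled samples for H3K4me1 (2), H3K27ac (3) and H3K27ac after LPS (3), and on 1 library for each CEBPA antibody. The name of the anti-CEBPA list lacks the tag for calling with no fragment model, so its calling settings may have differed from those of the other lists. The deposited lists give the fold enrichment at the summit, a linear ratio over the local background, and the −log10 of the q-value, down to a q of about 0.05. The authors' fold values were used to describe peaks and the deposited −log10 q-values to rank and filter them, within a list only. Depth is not in the files and limits what was called.

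Computed here were overlaps of at least 1 bp, merged classes, places of region midpoints (promoter from 1000 bp upstream to 100 bp downstream of any of 313800 transcript starts, then exon, intron, intergenic; GENCODE vM39 on GRCm39, the build of the lists), distances to starts of 21584 protein-coding genes, and motifs on both strands in 500 bp around the strongest summit, beside 500 bp windows every 10 kb of the genome. Gene starts were those of the canonical transcript. This was chosen after the 5′ ends of gene records had proved to lie far upstream at genes such as *Gata2*. Intervals are Wilson intervals at 95%. The members and gene lists were chosen with earlier results of these data known. Named were the first 3 genes of each list and those needed for counts up to 5, the 5 genes nearest to most regions of each class, per class the 3 best-ranked distal regions with summits of both antibodies, and the 3 best-ranked H3K27ac-only promoters, and further genes were named after their values were seen. Alternatives were q-values under 0.01 and 1e-05, equal list sizes, reciprocal overlap of 50%, merging within 1000 bp, promoters within 2500 bp, summits for midpoints, starts of all transcripts, anti-ER, narrow regions and 200 bp motif windows. Other lists of the series, and peaks on other chromosomes, were not used here. Some members of the gene lists are not reported here by name. The steps were tested on simulated lists. Scripts ran under Python 3.11.15, with pysam 0.24.0 for the genome, pandas 2.3.3 and numpy 2.4.6 for the lists, scipy 1.17.1 for intervals and matplotlib 3.10.9 for plots.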

Additional observations from a re-analysis of the deposited data

How the results depend on the processing

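No paired analysis was possible because each mark has 1 list called on pooled samples, and for the same reason leaving out each sample in turn was not run. Values follow the order both marks, H3K4me1 only, H3K27ac only.

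With q under 1e-05 in all lists there were 32516, 44464 and 39723 regions, peak overlaps were 51.1% for H3K4me1 and 49.4% for H3K27ac, an order opposite to that of the full lists, promoter shares 16.0%, 7.87% and 20.6%, anti-CEBPA shares 14.1%, 1.47% and 3.13%, shares with H3K27ac after LPS 91.4% with both marks and 66.6% with H3K27ac only, and median distances 25126 bp with H3K4me1 only and 16090 bp with H3K27ac only. With q under 0.01, 2 values moved beyond their interval, both for H3K27ac only, the promoter share to 14.7% and the share after LPS to 59.0%. With the same number of peaks from both mark lists, H3K4me1 overlap was 51.7% and H3K27ac overlap 45.4%, so the order turned here too, anti-CEBPA shares were 11.5%, 1.11% and 1.50%, and shares after LPS 90.3%, 15.1% and 59.9%. With peaks within 1000 bp merged there were 32270, 28814 and 28130 regions, so that H3K4me1 only was no longer the most numerous class, with anti-CEBPA shares of 20.8%, 1.98% and 2.46%, promoter shares of 15.7%, 6.83% and 13.4%, shares after LPS of 91.6%, 8.38% and 55.5% and median distances of 20279.5, 29306 and 21640.5 bp, where regions with both marks lay nearest. Reciprocal overlap of 50% gave 11.8% of H3K4me1 and 14.3% of H3K27ac peaks. Promoters within 2500 bp held 37.6%, 28.8% and 38.8%, and by strongest summit 15.9% of regions with both marks. Starts of all transcripts gave median distances of 4161, 5343.5 and 3855 bp. The anti-ER list gave 18.8%, 1.56% and 2.20%, and regions of 300 to 1000 bp gave 2.69%, 1.16% and 1.14%. Chosen after seeing the data, distal regions alone gave anti-CEBPA shares of 9.55% with both marks and 0.891% with H3K27ac only, and the top-ranked H3K4me1-only regions a share after LPS of 18.8%. The 5′ end of gene records and a window of 1000 bp each side of the start, also chosen afterwards, kept each count of gene starts within 1.5 times. The causes were not tested.

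In each of these settings regions with both marks had the largest share of anti-CEBPA summits and of H3K27ac after LPS where these were recomputed. For H3K27ac after LPS, the low place of H3K4me1 only follows largely from how the classes were defined. The lists give no depth, so an absent peak says only that none was called, and weak regions of a single mark are the ones most exposed to this. Chromatin preparation differed with the mark, and no value here separates the effect of either.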
